A study of Mus musculus with 4 samples.

Results

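The subject here is the GALNT family, the enzymes that start mucin-type O-glycosylation, in the newborn lung of RykSL/SL and wild-type mice. The 10 genes Galnt1, Galnt2, Galnt3, Galnt4, Galnt7, Galnt10, Galnt11, Galnt12, Galnt15 and Galnt18 were taken by symbol from 48709 genes of the series. Galnt15 was chosen by its normalized counts, which are far higher in the mutant lungs, and the others as its family. The 9 remaining GALNT genes of the mouse, from Galnt5 to Galntl6, were added so that the whole family is described.

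RNA came from the left lung lobe of 4 untreated C57BL/6 mice at postnatal day 1. The 2 mutant mice were homozygous for an allele called SL of Ryk, which encodes a receptor for WNT ligands, and the 2 control mice were wild type. What the SL allele changes in Ryk is not stated in the labels. Each library is a separate mouse, so the spread between libraries of a genotype includes differences between animals, with only 2 mice on each side. Values are normalized read counts as deposited, rounded to whole numbers.

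A GALNT enzyme sits in the Golgi and moves N-acetylgalactosamine from the sugar nucleotide UDP-GalNAc to a serine or threonine of a passing protein. Other enzymes then lengthen and cap that first sugar. The family is large because its members prefer different protein sequences, and several act mainly on peptides that already carry a GalNAc. In the lung the products include the gel-forming mucins of the airway, membrane mucins of the epithelium and sialomucins of the vessel wall.

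Library totals of normalized counts lay between 18658239 and 19987634. The lung identity of all 4 libraries was plain from their markers: Sftpc, the surfactant protein C gene of alveolar type 2 cells, stood at 135559 to 220945 and Scgb1a1, the club cell secretory gene, at 35648 to 46415, while no cartilage marker was above 10. Ryk itself was at 2757 and 2203 in the mutant against 2528 and 2525, so the groups overlapped. Xist, which silences the second X chromosome of females, stood at 24836 in mutant replicate 1 and at 7 to 23 elsewhere. The Y-linked Ddx3y was at 56 in mutant replicate 1 against 2197 to 3769. By these genes mutant replicate 1 reads as female and the other lungs as male. Sex therefore differs within the mutant pair and is not balanced between the genotypes, and the comparison of genotypes has no term for sex. The mutant lungs also differed more from each other (SD of the log2 difference over genes 0.60) than the wild-type lungs did (0.314).

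Sequence before the start site is shown for Galnt15, the gene that stood out, and for Galnt7 and Galnt10. Their annotated starts in RefSeq and GENCODE leave a stretch free of the gene's own transcripts, cut here to the same length for each gene. Whether transcripts of other genes cross these stretches was not checked. Each stretch has 136 bases and ends just before the outermost annotated start. It is printed 5′ to 3′ on the gene's strand from RefSeq, build GRCm38.p6, with CpG dinucleotides in capitals.
Galnt15, chr14:32028853-32028988, plus strand: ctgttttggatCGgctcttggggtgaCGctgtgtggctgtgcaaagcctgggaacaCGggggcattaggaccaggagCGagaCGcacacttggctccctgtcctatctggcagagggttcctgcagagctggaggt
Galnt7, chr8:57653056-57653191, minus strand: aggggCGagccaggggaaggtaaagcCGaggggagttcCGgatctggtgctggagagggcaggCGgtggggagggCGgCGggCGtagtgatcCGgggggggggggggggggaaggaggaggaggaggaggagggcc
Galnt10, chr11:57645306-57645441, plus strand: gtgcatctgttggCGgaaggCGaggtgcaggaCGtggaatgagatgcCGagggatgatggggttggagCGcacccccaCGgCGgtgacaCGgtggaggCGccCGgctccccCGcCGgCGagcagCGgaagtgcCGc

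The Galnt15 stretch held 5 CpG and was 60.3% G or C. The Galnt7 stretch held 8 CpG at 73.5%, and the Galnt10 stretch 15 at 70.6%. The stretches lie at unlike distances from the RefSeq start. That of Galnt15 ends at a GENCODE start upstream of it, the others directly before it. The RefSeq promoter table, with windows of 300 bases around the start, held 5 of the 10 genes. In those windows Galnt15 had 9 CpG, close to the median of 7 over all promoters, where Galnt3 had 41, Galnt10 28, Galnt7 25 and the upstream start of Galnt11 23. Of all promoter windows, 54.2% had fewer CpG than Galnt15 and 96.5% had fewer than Galnt3. The second start of Galnt11, inside the gene, had 7.

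Each window was searched on both strands for 5 exact motifs, and a match is a description of letters, not a site. The AP-1 heptamer TGACTCA occurred in the Galnt15 window and in 5.2% of all 32851 windows, and in no window of Galnt3, Galnt7, Galnt10 or Galnt11. The GC box GGGCGG occurred in the windows of Galnt3, Galnt7 and Galnt11 and in 35.7% of all windows, but not in those of Galnt10 or Galnt15. None of these 5 genes had an exact match to the palindromic glucocorticoid response element (0.00913% of all windows), the E-box CACGTG (7.15%) or the TATA box TATAAA (13.6%).

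In wild-type lung the family was led by Galnt18 and Galnt1. Levels are compared between genes as normalized counts per kilobase of annotated exon. Galnt18, which belongs to a subfamily with little measured transferase activity, stood at 676.5 and 775.5 per kilobase, and Galnt1, a broadly expressed enzyme that acts on unmodified peptides, at 436.1 and 405.2. These made up 41.8% and 47.0% (Galnt18) and 27.0% and 24.6% (Galnt1) of the summed level of the 14 GALNT genes that had a mean of at least 10 counts.

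Galnt4 came next at 128.5 and 119.1 per kilobase, then Galnt3 (88.5 and 86.4) and Galnt11 (90.2 and 80.8), whose values overlapped. Galnt4 also acts on peptides that already carry GalNAc, Galnt3 is known for protecting the hormone FGF23 from cleavage, and Galnt11 for modifying NOTCH1 and receptors of the LDL receptor family. Galnt10 (46.4 and 50.6), Galnt7 (43.2 and 37.5), Galnt16 (30.1 and 28.6) and Galnt12 (22.7 and 21.4) followed, each pair of lungs apart from its neighbours in the order. Galnt15 was among the low members of the family in the wild type, at 19.4 and 17.7 per kilobase, overlapping with Galnt6 (20.9 and 14.0). Galnt5, Wbscr17 (now called Galnt17) and Galnt13 lay below.

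**Figure D1:**
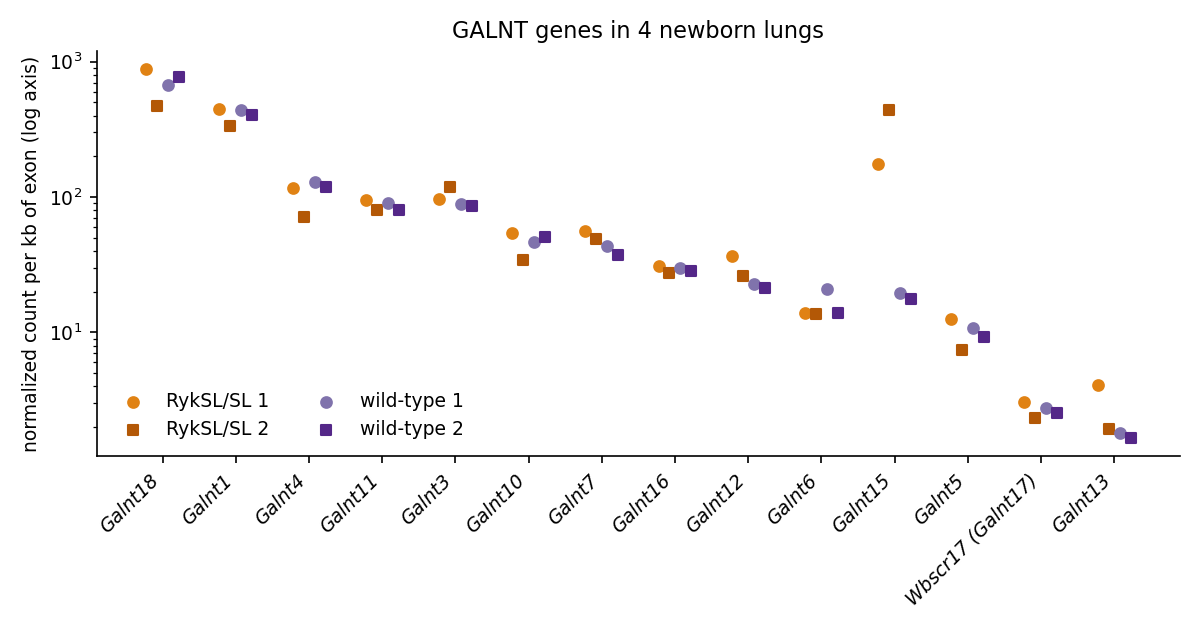
Normalized count per kilobase of exon (log axis) of the 14 GALNT genes with a mean of at least 10 counts, ordered by the level in wild-type replicate 1; each point is 1 lung. Galnt15 is the gene whose mutant points (175.8 and 436.8) lie far above its wild-type points (19.4 and 17.7).

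Galnt2 was near 0 in this table. Its values were 2 and 5 in mutant lungs, 4 and 6 in wild-type lungs, although it is known as a broadly expressed member. Of its 4282 exon bases, 3854 are also exons of Gm20388, a gene model on the same strand, which stood at 0 in all 4 lungs. Among protein-coding genes with at least 90% of their exon bases shared in this way, the median of the mean value was 0 over 147 genes and 7.5% had a mean of at least 10. Among the 20200 genes with no shared base the median was 132 and that share 67.0%. How reads in shared exons were counted is not stated, and whether the sharing accounts for the value of Galnt2 was not tested. Its mean was under 10, so it entered no comparison. The order of levels and the pool shares given here leave it out, and its place among them is not known. Galnt4 shares 8.3% of its exon bases with Poc1b on the same strand. Between 1.9% and 4.5% of the exons of Galnt7 and Galnt11 lie opposite exons of another gene. The annotated transcripts of Galnt3, Galnt10, Galnt12, Galnt15 and Galnt18 share no sequence of 50 bases with those of any other gene.

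Galnt15 (ENSMUSG00000021903, chromosome 14, positions 32028989 to 32062197, GRCm38) encodes a GALNT enzyme whose substrates are less well studied. Its normalized counts were 1112 in mutant replicate 1, 2763 in mutant replicate 2, 123 in wild-type replicate 1 and 112 in wild-type replicate 2. Both mutant lungs were far above both wild-type lungs, and they were also far apart from each other. Against the wild-type mean, mutant replicate 1 was 9.46-fold and mutant replicate 2 23.5-fold higher. The log2 fold change of 3.89, on the log2(count + 1) scale, ranked 10 among the 18436 genes tested, those whose mean count reached 10. Since the gene was chosen for this difference, it is described without a test. In bulk tissue, more cells that make Galnt15 and more Galnt15 RNA per cell cannot be told apart.

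With that change the make-up of the 14 GALNT genes compared was different in the mutant lungs. Galnt15 went from 1.20% and 1.07% of the summed level per kilobase in the wild type to 8.68% and 26.1% in the mutant, from rank 11 and 10 to rank 3 and 2 of 14. The summed level of the other 13 genes was 1849.7 and 1233.8 per kilobase in mutant lungs beside 1598.5 and 1632.5 in wild-type lungs, so that the mutant lungs lay on either side of the wild type. With Galnt15 included the sums were 2025.5 and 1670.5 against 1617.9 and 1650.2. Galnt18 made up 43.5% of the pool in mutant replicate 1 and 27.9% in mutant replicate 2. Of the pool without Galnt15 it made up 47.6% and 37.8% there, and 42.3% and 47.5% in the wild type.

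**Figure D2:**
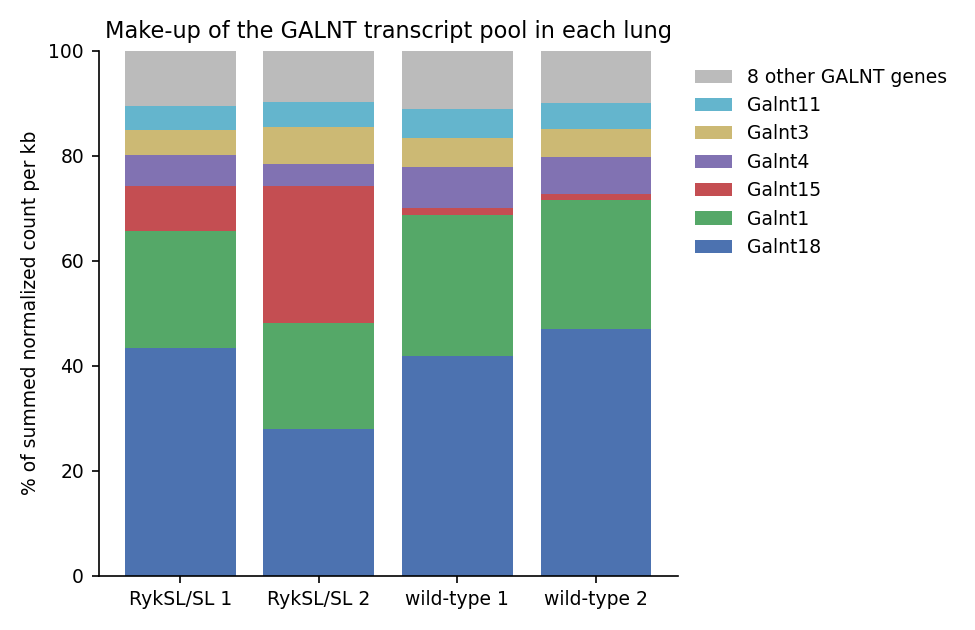
Share of each gene in the summed normalized count per kilobase of 14 GALNT genes, as a stacked bar for each of the 4 lungs (Galnt2, with a mean under 10, is left out). Galnt15 takes 8.68% and 26.1% of the mutant bars and 1.20% and 1.07% of the wild-type bars.

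Marker genes of several cell types also differed between the genotypes, and their part in the Galnt15 difference was not tested. Over all tested genes, 26.9% were lower and 25.7% higher in both mutant lungs than in both wild-type lungs, and limma called 0.917% lower and 1.47% higher at an adjusted p under 0.05. Fits without mutant replicate 2 or either wild-type lung called no gene of the table, these markers included. All 5 B-cell markers were lower in both mutant lungs (2 passed), with a summed level of 366 and 270 against 844 and 841. All 6 macrophage markers were lower in both mutant lungs (1 passed), at 2103 and 1966 against 3092 and 2712. Of 7 heart muscle markers, 6 were lower in both mutant lungs and 2 of them passed, at 3523 and 3510 against 6972 and 6912, and Nppa was at 1 to 3. Of 8 fibroblast markers, 6 were lower in both mutant lungs (2 of them passed) and Pdgfra rose, at a sum of 38943 and 41868 against 58260 and 56166. Of 10 goblet cell markers, Muc5b rose and 5 other tested genes did not pass. Of these 5, Muc5ac, Agr2 and Fcgbp were lower in both mutant lungs and Bpifb1 was higher in both. The goblet cell factor Spdef overlapped, at 27 and 15 against 19 and 28. The mesothelial markers were higher in mutant replicate 2 than in mutant replicate 1 (4 of 4). Their sums were 8387 and 18374 in mutant lungs and 13699 and 11846 in wild-type lungs.

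Of the 7 other protein-coding genes within 250 kilobases of Galnt15, 6 had enough counts to be tested. Their adjusted p by limma lay between 0.405 and 0.986, so 0 of 6 passed where 2.39% of all tested genes did, and this count does not set them apart from other genes. The nearest, Dph3, 18.4 kilobases away, had 687 and 741 counts against 650 and 571 (log2 fold change 0.23, standard error 0.149). Oxnad1 had 187 and 295 against 183 and 190. Ncoa4, which delivers ferritin to autophagy, had 2810 and 4462 against 2726 and 2693 (0.39, standard error 0.232).

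The 5 tested genes closest to Galnt15 over the 4 lungs were ranked by the distance between log2 profiles after subtraction of the wild-type mean, leaving out predicted models and pseudogenes. Kcnt1, a sodium-activated potassium channel gene, was closest at a distance of 0.788, where the median over all genes was 5.61. It had 185 and 516 counts against 15 and 30. Igfbp1, which binds insulin-like growth factors (15 and 23 against 1 and 1), the non-coding gene Gdap10 (161 and 625 against 33 and 33), Rasd1, a small GTPase gene inducible by glucocorticoids (150 and 283 against 25 and 19), and Scara5, a ferritin receptor gene (2058 and 2700 against 205 and 259), followed at 0.993 to 1.06. These genes were selected for this pattern, so it is not tested.

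None of the other GALNT genes passed the test between the genotypes. Genotypes were compared on the log2(count + 1) scale with limma, its prior following the mean-variance trend, in the 18436 genes whose mean reached 10. The test was two-sided, with Benjamini-Hochberg adjustment and a threshold of 0.05. It called 440 genes, 2.39% of those tested, with 1.47% higher and 0.917% lower in the mutant. That number was 2385 without mutant replicate 1 and 0 without each of the other 3 lungs. Of all 18436 tested genes, 3703 had an unadjusted p under 0.05. Of the 8 other members that could be tested, 0 passed, and 0 had an unadjusted p under 0.05. Their log2 fold changes ran from -0.44 to 0.48 with a median of -0.04, beside a median of -0.02 over all tested genes. In 4 of these 8 genes the genotypes did not overlap, a share near the 52.6% of all tested genes. The intervals are wide, so these results do not show that the levels are the same.

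**Figure D3:**
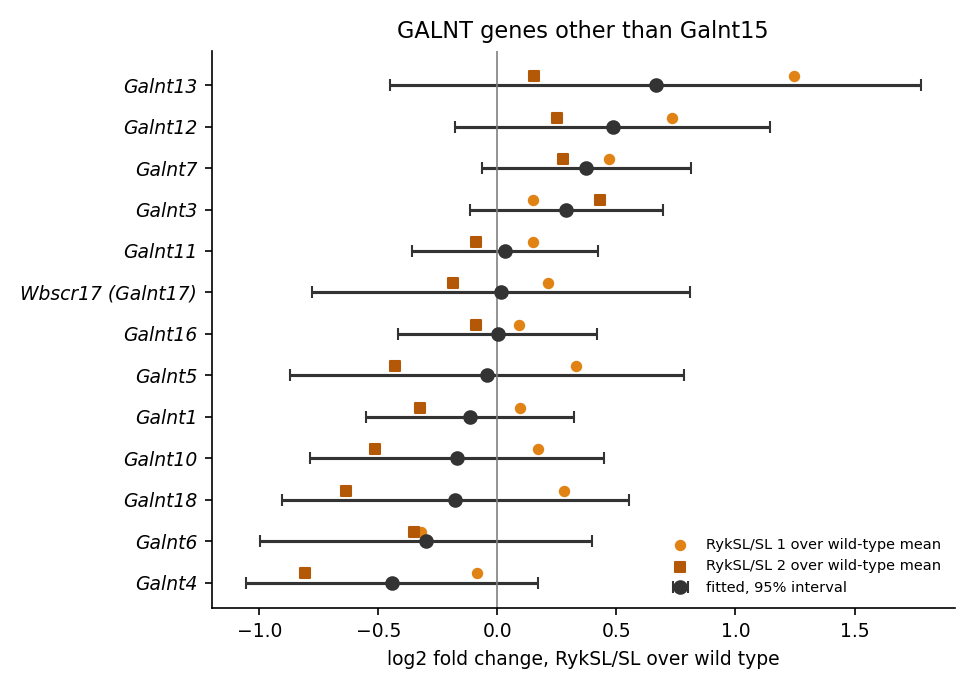
Log2 fold change (mutant over wild type) of the 13 tested GALNT genes other than Galnt15; black points and bars are the limma estimate with its 95% interval, and coloured points give each mutant lung over the wild-type mean. All 13 intervals include 0, and in Galnt1, Galnt5, Galnt10, Galnt11, Galnt16, Galnt18 and Wbscr17 mutant replicate 1 lies above 0 and mutant replicate 2 below.

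Of the enzymes that start on unmodified peptides, Galnt1 (chromosome 18, positions 24205344 to 24286818) had 2477 and 1853 counts against 2407 and 2236. The groups overlapped, and the log2 fold change was -0.11 with a 95% interval from -0.55 to 0.32 (limma, adjusted p = 0.762). Galnt3 (chromosome 2, positions 66082766 to 66124994) had 424 and 516 against 387 and 378. Both mutant lungs were slightly above both wild-type lungs, with a log2 fold change of 0.29 and an interval from -0.11 to 0.69 (adjusted p = 0.383). Galnt11 (chromosome 5, positions 25221904 to 25265918) had 650 and 551 against 618 and 554 and overlapped, with an interval from -0.36 to 0.42. Its neighbour Galntl5, an inactive relative, was at 0 in all 4 lungs.

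Of the enzymes known to act on peptides that already carry GalNAc, Galnt4 (a gene with a single exon, chromosome 10, positions 99108159 to 99113247) had 594 and 360 counts against 654 and 606. Both mutant lungs were below both wild-type lungs, with mutant replicate 2 far lower than mutant replicate 1. The log2 fold change of -0.44 (interval -1.06 to 0.17, adjusted p = 0.379) did not pass. Without mutant replicate 1 it was -0.80 and passed (adjusted p = 0.0453), in a fit that called 12.9% of all genes and in which the lone mutant lung is assumed to vary like the wild-type lungs. Without mutant replicate 2 it was -0.084 (adjusted p = 0.578). Across all alternatives the adjusted p of Galnt4 lay between 0.0453 and 0.971.

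Galnt7 (chromosome 8, positions 57523828 to 57653032) had 293 and 257 counts against 227 and 197, above the wild type in both mutant lungs. Its log2 fold change of 0.37 (interval -0.06 to 0.81) had the smallest adjusted p of the 8 genes, at 0.307. Galnt10 (chromosome 11, positions 57645442 to 57787514) had 326 and 203 against 277 and 302, so that 1 mutant lung was above and the other below the wild type. Galnt12 (chromosome 4, positions 47091909 to 47123070), a low gene known from the colon, had 84 and 60 against 52 and 49. Its log2 fold change was 0.48 with an interval from -0.18 to 1.15, and it was 0.24 without mutant replicate 1 and 0.72 without mutant replicate 2.

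Galnt18 (chromosome 7, positions 111471661 to 111779977), the highest per kilobase of the 14 genes, had 2267 and 1202 counts against 1742 and 1997. Mutant replicate 1 was the highest and mutant replicate 2 the lowest of the 4 lungs, and the log2 fold change of -0.18 had an interval from -0.90 to 0.55. Of the 9 other GALNT genes 5 could be tested, and none passed (adjusted p from 0.465 to 0.998). Of these 5, 0 had an unadjusted p under 0.05, beside 3703 of all 18436 tested genes. Galnt16 had 251 and 222 against 242 and 230, and Galnt6 had 54 and 53 against 81 and 54. The log2 fold change of Galnt6 was -0.30, but -0.013 without wild-type replicate 1 and -0.59 without wild-type replicate 2. Galnt5 had 56 and 33 against 48 and 41, and Wbscr17 had 29 and 22 against 26 and 24. Galnt13 had 32 and 15 against 14 and 13. Its log2 fold change was 0.67 with an interval from -0.45 to 1.78, and it was 0.14 without mutant replicate 1 and 1.19 without mutant replicate 2. Galnt9, Galnt14 and Galntl6 were at 5 counts or fewer in every lung.

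The members also differed between the lungs of the mutant. Of the 8 tested members besides Galnt15, 7 were lower in mutant replicate 2 than in mutant replicate 1, and Galnt3 was the exception. The share of all tested genes that were lower there was not computed, so this count does not set the members apart. The median size of the log2 difference between the mutant lungs was 0.45 for these 8 genes, against 0.32 over all tested genes. Between the wild-type lungs it was 0.12 for the members and 0.13 over all genes. Galnt18 differed most of the 8, by -0.91 from mutant replicate 1 to mutant replicate 2, and 9.72% of all tested genes had a larger difference. Galnt4 (-0.72) and Galnt10 (-0.68) followed. Galnt15 went the other way by 1.31, a size that 3.75% of tested genes exceeded.

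Markers of smooth muscle and endothelium differed between the mutant lungs in the same direction as Galnt18, Galnt4 and Galnt10. All 5 smooth muscle markers were lower in mutant replicate 2, with a summed level of 9840 and 3776 in mutant lungs beside 7945 and 6698 in wild-type lungs. Of 6 endothelial markers, 5 were lower there, with 32871 and 19737 against 25182 and 28168. Also mostly lower there were ciliated (5 of 6), alveolar type 2 (5 of 7) and B-cell markers (4 of 5). So were goblet cell and macrophage markers (4 of 6 each). Club cell (4 of 8) and red cell markers (2 of 4) were evenly split. Fewer were lower among mesothelial (0 of 4) and alveolar type 1 markers (2 of 6). The same held for heart muscle (2 of 6) and fibroblast markers (3 of 8). Without the share over all tested genes, these counts do not set any marker list apart. The median log2 difference from mutant replicate 1 to mutant replicate 2 was -1.40 for the smooth muscle list and -0.81 for the endothelial list. Whether they account for the differences of the GALNT genes was not tested, nor was that of the sex-linked genes in which the mutant lungs also differed.

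**Figure D4:**
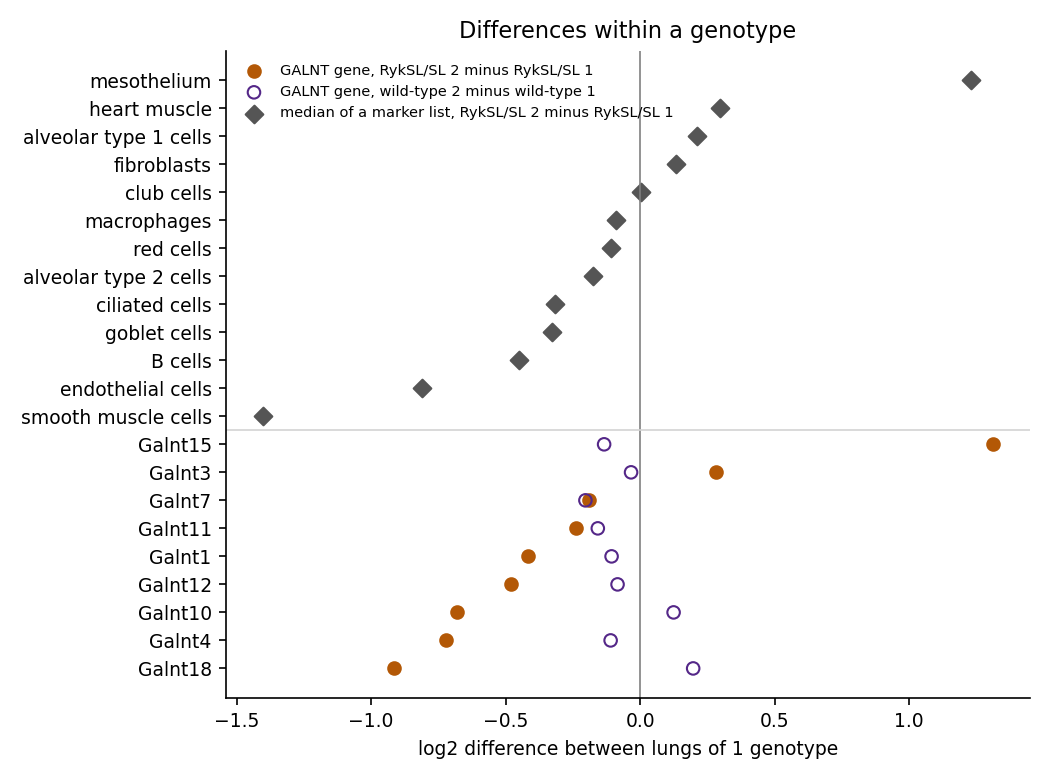
Log2 difference between the lungs of a genotype (log2(count + 1) scale) for the 9 tested members, with filled circles for mutant replicate 2 minus 1 and open circles for wild-type replicate 2 minus 1, and diamonds for the median of each marker list in the mutant. Galnt15 lies at 1.31 and Galnt18 at -0.91, while no wild-type difference of these 9 genes exceeds 0.204 in size.

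The enzymes that lengthen and cap O-GalNAc glycans included 1 gene that fell, Chst2, which sulfates N-acetylglucosamine on such chains. It had 529 and 317 counts against 1196 and 1225, with both mutant lungs far below the wild type, and the log2 fold change was -1.56 (standard error 0.251, limma adjusted p = 0.0401). With 1 lung left out it lay between -1.93 and -1.19. Its adjusted p was 0.0966 without mutant replicate 2 and 0.889 and 0.768 without the wild-type lungs, in fits that called no gene at all. The other 13 of 14 tested genes did not pass, and the list median was 0.01. C1galt1, which adds the galactose of the core 1 structure, had 1749 and 2036 against 1809 and 1592. Its chaperone gene C1galt1c1 had 646 and 1039 against 919 and 757. Both overlapped between the genotypes. They were picked once their values were known.

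The sialyltransferase gene St6galnac6, the second of this list by p, had 263 and 190 counts against 445 and 441 (-0.98, adjusted p = 0.0745). Its relative St6galnac5, picked once its values were known, had 176 and 230 against 86 and 109 (1.05, adjusted p = 0.0888). The genotypes did not overlap for either gene, in opposite directions, and neither passed. Both passed with the replicate number as a block. The log2 fold change of St6galnac6 lay between -1.22 and -0.75 with 1 lung left out.

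Among 12 genes that make and import UDP-GalNAc, 0 passed, and the median was 0.00. An unadjusted p under 0.05 was seen in 3 of them, beside 3703 of all 18436 tested genes. Gfpt2, an isoform of the enzyme that opens the hexosamine pathway, had 147 and 468 against 113 and 101 (1.29, adjusted p = 0.237). The log2 fold change was 2.12 without mutant replicate 1 and 0.46 without mutant replicate 2. As in Galnt15, mutant replicate 2 was well above mutant replicate 1. Nagk, which salvages N-acetylglucosamine, had 440 and 366 against 627 and 553 (-0.55, adjusted p = 0.159).

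Of 17 tested mucin and sialomucin genes, the proteins that carry most O-GalNAc, 1 rose and 16 did not pass, with a median of -0.17. The gel-forming airway mucin gene Muc5b had 247 and 567 counts against 50 and 47, and its log2 fold change was 2.92 (standard error 0.391, limma adjusted p = 0.0270). With 1 lung left out it lay between 2.33 and 3.52, and in the fits that called no gene of the table its adjusted p was 0.0966 (without mutant replicate 2), 0.860 and 0.768 (without the wild-type lungs). Muc5b and Galnt15 were both higher in mutant replicate 2 than in mutant replicate 1. Cd34, a sialomucin of vessels, had 4100 and 2522 against 5035 and 5011 (-0.64, adjusted p = 0.221). It was -0.99 without mutant replicate 1 and -0.29 without mutant replicate 2. The membrane mucin gene Muc1 had 4031 and 1867 against 3791 and 3598 and overlapped, as did the sialomucin gene Podxl at 6950 and 2918 against 4471 and 4665, and both were picked once their values were known.

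Of 13 genes that start other kinds of O-glycan, 0 passed and the median was -0.18. An unadjusted p under 0.05 was seen in 3 of them, beside 3703 of all 18436 tested genes. Kdelc2, which adds glucose to EGF repeats, had 841 and 714 against 1275 and 1158 (-0.65, adjusted p = 0.0983). Leaving out 1 lung gave log2 fold changes from -0.77 to -0.53. Colgalt2, which adds galactose to collagen, had 214 and 237 against 140 and 144 (0.66, adjusted p = 0.128).

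Of 17 Golgi enzymes of N-glycans, 1 rose and the median was -0.05. Man2a1, a mannosidase that trims N-glycans, had 3287 and 3097 counts against 1823 and 1802, and its log2 fold change was 0.82 (standard error 0.132, limma adjusted p = 0.0414). With 1 lung left out the fold change stayed between 0.77 and 0.86 on the log2 scale, while the adjusted p was 0.0966 without mutant replicate 2 and 0.950 and 0.780 without the wild-type lungs, in fits that called no gene of the table. St3gal4, a sialyltransferase gene, had 604 and 612 against 881 and 889 (-0.54, adjusted p = 0.109). Its range with 1 lung left out was -0.55 to -0.53. Over the 5 lists, 3 of 73 tested genes passed (2 higher, 1 lower), beside 2.39% of all genes. The fits without mutant replicate 2 or either wild-type lung called no gene of the table and so do not bear on these 3 genes.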

How the data were processed

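The 4 libraries were made from 3 µg of total RNA each with a stranded mRNA kit, per the labels' protocols. Per the submitters' processing notes the tools were FastQC, STAR 2.4.0a, featureCounts 1.5.1 of Subread and DESeq2 1.14.1, with mm10 and GRCm38. For the strand setting, reads shared between genes and the scaling, no value is given in the sources used here. The authors deposited a single table of normalized counts, treated here as a score: all values are whole, totals are nearly equal, and they are not raw counts, so no count model was run. Raw depth per library is unknown.

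Groups came from the sample titles. Limma 3.58.1 (R 4.3.3, with version 1.17.8 of data.table) was fitted to the whole table as the report describes, with 4.07 prior degrees of freedom. It was also run on simulated data with the same dispersion in all libraries. That run does not cover the unequal spread of the mutant and wild-type pairs. Exon lengths, overlaps and shared sequences of 50 bases came from GENCODE M21 (GRCm38). Lengths are those of all exons of a gene merged. Python 3.11.15, pandas 2.3.3, numpy 2.4.6 and matplotlib 3.10.9 were used.

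The named genes were Ryk, the 10 members, each other GALNT gene with a mean of at least 10, of each pathway list every gene called (the 2 with the smallest p where fewer than 2 were called), and the 5 closest to Galnt15. Any further gene is a marker, a neighbour of Galnt15, or marked as picked once its values were known. The members and lists were chosen with earlier results of these data known. The alternatives were other pseudocounts, filters and scalings, no trend, a replicate block, and leaving out each lung.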

Additional observations from a re-analysis of the deposited data

How the results depend on the processing

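The number of genes called, 440, was within 1.5 times under other pseudocounts, a higher filter, quantile normalization and scaling to equal totals. It was 0 with no filter on low values (4876 with an unadjusted p under 0.05), 72 without the trend, 766 with the replicate block, and 0 to 2385 when 1 lung was left out: 2385 without mutant replicate 1 and 0 without each of the other 3. Lungs with the same replicate number showed no shared shift over genes (correlation of same-numbered deviations -0.058). With so few lungs, that value cannot show whether the samples were paired. The GALNT genes other than Galnt15 gave 0 calls under every setting except without mutant replicate 1, where Galnt4 was called (range 0 to 1). The 3 calls over the pathway lists became 0 with no filter, 0 without the trend, 4 with the replicate block, and 0 to 18 when 1 lung was left out. Chst2 and Muc5b did not pass with no filter or without the trend. Man2a1 passed neither there nor after quantile normalization (adjusted p = 0.0556), scaling to equal totals (0.0596) or the block (0.0507).

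The log2 fold change of Galnt15 was 3.81 to 3.89 under the other settings and 3.23 to 4.55 with 1 lung left out. Galnt3 (0.15 to 0.43), Galnt4 (-0.80 to -0.084), Galnt6 (-0.59 to -0.013), Galnt7 (0.27 to 0.48), Galnt12 (0.24 to 0.72) and Galnt13 (0.14 to 1.19) also moved with 1 lung left out but kept their sign. Small values changed sign. Scaling to equal totals gave -0.046 for Galnt11, -0.078 for Galnt16 and -0.060 for Wbscr17. With 1 lung left out the ranges were -0.32 to 0.094 for Galnt1, -0.51 to 0.17 for Galnt10, -0.087 to 0.15 for Galnt11, -0.63 to 0.28 for Galnt18, -0.42 to 0.33 for Galnt5, -0.087 to 0.089 for Galnt16 and -0.18 to 0.21 for Wbscr17. The cause was not tested.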
